A study of Mus musculus with 96 samples.

Results

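The descending thin limb of short loops of Henle (DTL1) was compared with the inner medullary collecting duct (IMCD) by RNA sequencing of tubule pieces microdissected from mouse kidneys. The samples were taken by the segment in their labels: 4 of DTL1 and 9 of IMCD, together 13 of the 93 tubule and glomerulus samples of the study. All came from untreated male C57BL/6 mice aged 6 to 8 weeks, kept on normal chow with free access to water. The DTL1 samples were 1 piece from mouse 1, 2 pieces from mouse 3 and 1 piece from mouse 5. The IMCD samples were 3 pieces from each of the mice numbered 1, 2 and 3. The study reports 53 mice, as many as the table has combinations of mouse number and segment. The labels do not say whether a number shared by both segments marks the same animal, and each group was taken as 3 separate mice. The remaining 13 groups, 12 other tubule segments and the glomerulus (GL), served to place each level along the nephron. Values are TPM, a transcript abundance that corrects for gene length and library total, and are given as the mean ± SD over mice after averaging the pieces of a mouse, unless single samples are named. The number of mice was 3 per group, except 4 in OMCD and ATL and 5 in PTS2, CTAL and CCD.

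Urea is the main organic solute of the inner medulla, and the urine is concentrated there partly because urea is recycled between tubule segments and vessels. Urea leaves the terminal collecting duct through transporters regulated by vasopressin, and enters descending thin limbs that carry it back towards the medulla. Both transporters are products of 1 gene, Slc14a2, which gives rise to collecting duct forms and a descending limb form. Levels summed over a gene, as used here, do not separate these forms. Its neighbour Slc14a1 encodes the urea transporter of red cells and of the descending vasa recta.

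The pieces were checked against markers of the labelled and of other cell types. Principal cell markers, water channels and transporters of the collecting duct, summed to between 27812 and 42580.4 TPM in the IMCD samples and to between 63 and 135 TPM in the DTL1 samples. Corin, taken as a mark of DTL1, stood at 883 ± 364 TPM in DTL1, and the second highest group was GL at 1.72 ± 0.480 TPM. Markers of the long descending limb summed to 27.7 to 289 TPM in DTL1, beside a median of 14089 TPM in DTL2. Transcripts known as markers of other cell types were also measured in the DTL1 pieces, and the cells they came from were not tested. Endothelial markers summed to between 3343 and 5423 TPM in DTL1 and to between 12.1 and 564 TPM in IMCD, and all 8 of them were at 1 TPM or more in every DTL1 sample. Proximal tubule markers summed to 1329 to 5459 TPM in DTL1 and to at most 10 TPM in IMCD. The leukocyte list summed to 144 to 767 TPM in DTL1 and 3.44 to 9.17 TPM in IMCD, and the thick ascending limb list to 92.4 to 409 TPM and 0.77 to 5.53 TPM. Single genes made up most of some sums. Umod gave 73 to 393 TPM of the thick limb sum in DTL1, where Slc12a1 stood at 4.22 TPM. Kap gave 798 to 4198 TPM of the proximal sum there, with Slc34a1 at 2.03 TPM. Aqp2 gave 24306 to 31251 TPM of the principal cell sum in IMCD, with Scnn1g at 0.358 TPM. At 1 TPM or more in every DTL1 sample were 3 of the 5 thick limb genes and 7 of the 8 proximal genes. Hba-a1, Hba-a2 and Hbb-bs, which encode globin chains of red cells, were listed at 0 in every DTL1 sample, and Hbb-bt, the other gene of that list, at 0 to 0.95 TPM.

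**Figure D1:**
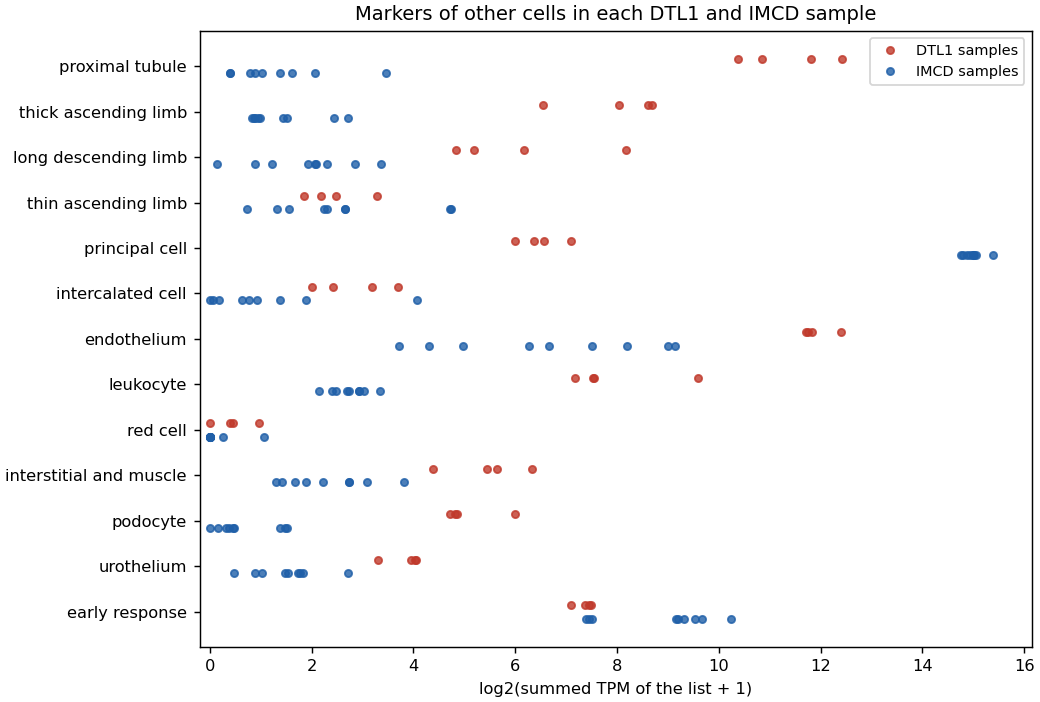
Summed TPM of each marker list on the log2(TPM + 1) scale, 1 point per sample, for the 4 DTL1 and the 9 IMCD samples. The endothelial, proximal, thick limb and leukocyte sums of all DTL1 samples lie above those of all IMCD samples, and the principal cell sums lie the other way round.

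The libraries differed in breadth as well. Between 26044 and 28418 genes reached 1 TPM in the DTL1 samples and between 12850.0 and 17486 in the IMCD samples. Odorant and vomeronasal receptor genes, which are silent in most tissues, reached 1 TPM in numbers of 637 to 747 per DTL1 sample and 2 to 114 per IMCD sample. The predicted gene Gm10800, named here after its values were seen, stood at 16343 TPM in DTL1 and 362 TPM in IMCD. The read depth behind the values is unknown, because TPM keep none. Correlations of log2(TPM + 1) over the 33793 genes tested were 0.815 to 0.916 between DTL1 mice and 0.978 to 0.989 between IMCD mice. Between a DTL1 and an IMCD mouse they were 0.728 to 0.843. DTL1 mouse 3 had 0.836 to 0.843 with the IMCD mice and 0.834 with DTL1 mouse 5. These are across genes, which are not independent replicates. Mouse 5 of DTL1 was the mouse less like the others. The part of these differences in the gene results below was not tested, and in bulk samples fewer cells of a type cannot be told apart from less RNA per cell.

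Slc14a2 was abundant in both segments and far lower in every other group. It was the gene with rank 5 by mean TPM in DTL1, out of 54532 genes in the table, and rank 34 in IMCD. In DTL1 it stood at 9809 TPM in mouse 1, at 7931 and 9677 TPM in the pieces of mouse 3, and at 4052 TPM in mouse 5. The 9 IMCD samples ranged from 1279 to 2816 TPM with a median of 2449. The lowest DTL1 sample lay above the highest IMCD sample. The group means were 7555 ± 3075 TPM in DTL1 and 2182 ± 685 TPM in IMCD, a log2 difference of 1.76 with a standard error (SE) of 0.38 and an adjusted p of 9.50e-05. The difference stayed between 1.27 and 2.15 on the log2 scale, and past the threshold, under every alternative processing that was run.

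Along the rest of the nephron the next levels of Slc14a2 were 13.4 ± 13.1 TPM in DTL3 and 4.63 ± 3.15 TPM in DTL2, the descending limbs of long loops, and the mice of those 2 groups overlapped. OMCD followed at 1.74 ± 2.70 TPM and ATL at 0.487 ± 0.661 TPM, again with overlapping mice. The smaller of the differences between DTL1 or IMCD and any of the other 13 groups, called the margin here, was 7.66 with an SE of 0.38, found between IMCD and DTL3. Its adjusted p in the test over all 26 contrasts was 2.25e-19. Slc14a1 was near 0 in both segments. It stood at 0.835 ± 0.117 TPM in DTL1 and 0.050 ± 0.0649 TPM in IMCD, and its highest group was MTAL at 2.28 ± 1.29 TPM.

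**Figure D2:**
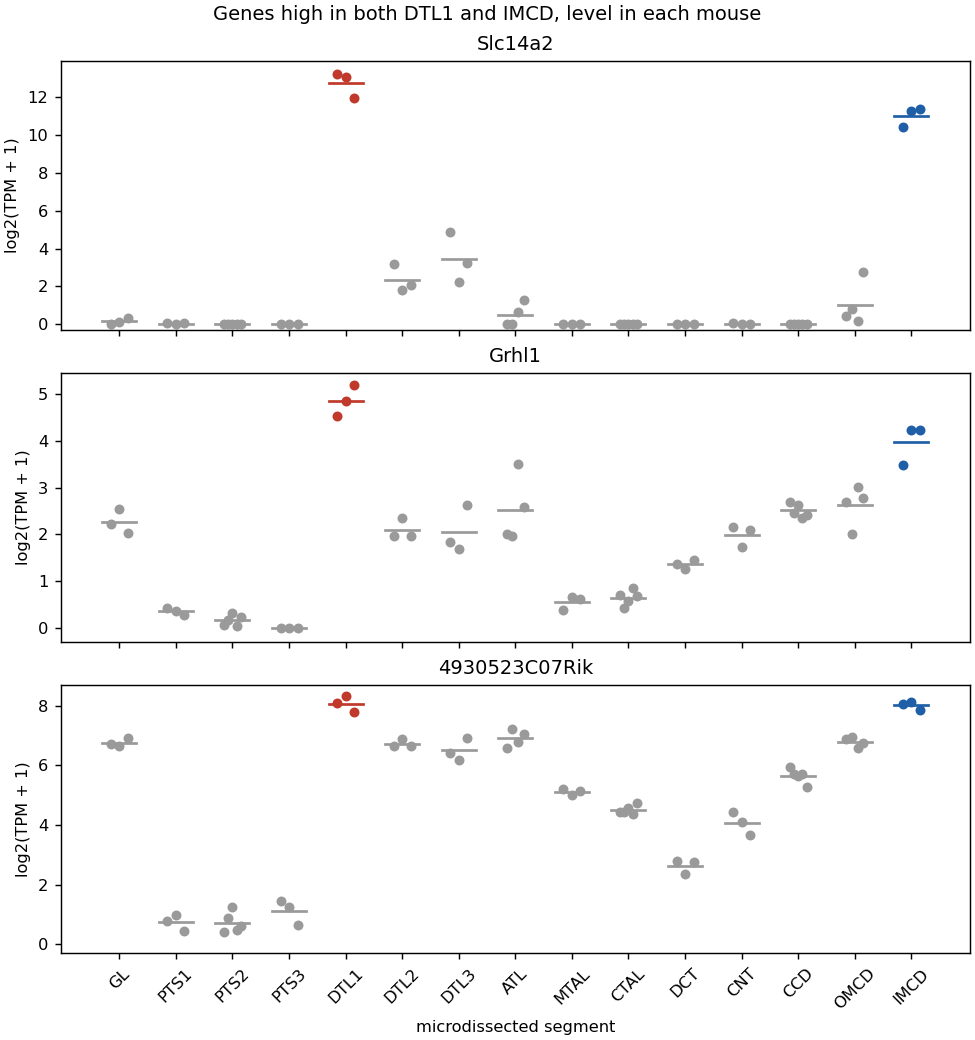
Level of Slc14a2, Grhl1 and 4930523C07Rik in log2(TPM + 1) for every mouse of the 15 groups, with a line at the group mean and DTL1 in red and IMCD in blue. For Slc14a2 the DTL1 and IMCD mice stand far above the next group, DTL3 at 13.4 TPM, while for the other genes the margin over the next group is small.

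To find further genes of this kind, each gene had to reach a mean of 10 TPM in both segments and to exceed every other group from both sides by at least 1 on the log2 scale with an adjusted p under 0.05. This named 3 of the 33793 genes tested (0.00888%), or 3 of the 7656 genes with a mean of 10 TPM in both (0.0392%). Beside Slc14a2 they were Grhl1, a grainyhead transcription factor of epithelia, and 4930523C07Rik, which was named only because the count is small. Grhl1 was measured at 22.1 TPM in DTL1 mouse 1, 25.6 and 30.4 TPM in mouse 3 and 35.7 TPM in mouse 5, and at 7.49 to 22.4 TPM with a median of 16.4 in the IMCD samples. Next came OMCD at 5.36 ± 1.72 TPM, and the margin was 1.34 (SE 0.26, adjusted p = 0.0253). ATL followed at 5.29 ± 3.46 TPM, and its highest mouse, at 10.28 TPM, lay above the lowest IMCD mouse, at 10.17 TPM. 4930523C07Rik was at nearly equal level in the segments compared, 268 ± 49.5 TPM in DTL1 and 258 ± 22.7 TPM in IMCD, and the mice overlapped. Its margin over ATL, at 121 ± 23.1 TPM, was 1.10 (SE 0.20, adjusted p = 0.0174).

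Neither Grhl1 nor 4930523C07Rik held its call across the alternatives. Both lost it with a pseudocount of 0.1 (adjusted p = 1 for each), although the margins were 1.49 for Grhl1 and 1.10 for 4930523C07Rik. Grhl1 also lost it with a pseudocount of 5, at a margin of 0.95, and without the 3 IMCD pieces richest in receptor genes (1.19, adjusted p = 0.216). Without IMCD mouse 2 the margin of Grhl1 was 1.21 (adjusted p = 0.434), and without IMCD mouse 3 it was 1.20 (adjusted p = 0.555). The call of 4930523C07Rik was lost without DTL1 mouse 1 or 3 and without any IMCD mouse, with margins of 1.02 to 1.14 and adjusted p of 0.0634 to 0.298, and held without DTL1 mouse 5. It was also lost after median ratio rescaling (0.81, adjusted p = 0.969) and quantile normalization (1.04, adjusted p = 0.0672). Slc14a2 kept a margin of 7.09 to 8.49 throughout, past the threshold each time.

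Some genes with a margin above 1 that missed the adjusted p threshold, most of them by far, are given as values. Nfe2l3, a CNC family transcription factor, was measured at 16.9 ± 3.75 TPM in DTL1 and at 43.6 ± 15.6 TPM in IMCD, with OMCD next at 6.18 ± 4.72 TPM. Its margin of 1.57 missed the threshold (adjusted p = 0.0990). It passed with a pseudocount of 5 (1.06, adjusted p = 0.00148), among protein-coding genes only (adjusted p = 0.0334) and with every sample as independent (adjusted p = 0.00153). Hs3st1, a heparan sulfate sulfotransferase, stood at 37.3 ± 6.56 and 41.5 ± 4.58 TPM, with DTL2 at 15.4 ± 7.54 TPM. Its margin was 1.32 and far from the adjusted p threshold in the main fit. It passed with a pseudocount of 5 (1.10, adjusted p = 0.00448) and under no other setting. Krt19, a simple epithelial keratin, was at 50.2 ± 9.08 TPM in DTL1 and 115 ± 67.1 TPM in IMCD, with CCD at 23.7 ± 3.74 TPM. Its margin was 1.06, and it passed under no setting. Upk3bl, Slc12a8 and Cd14 also had their highest means in these segments, at 11.7 to 38.7 TPM, and Upk3bl and Slc12a8 passed with every sample as independent.

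Beyond the shared urea transporter the segments differed widely. Called here means an adjusted p under 0.05 and a log2 difference of at least 1 in limma. Of the 33793 genes tested, 17082 (50.5%) were called, 15822 (46.8%) higher in DTL1 and 1260 (3.73%) higher in IMCD. Among the 12077 genes with a mean of 10 TPM or more in either segment, 5332 (44.2%) were called, 4406 (36.5%) higher in DTL1 and 926 (7.67%) higher in IMCD. The split depended on the scaling. Of the calls at 10 TPM, DTL1 took 82.6% on TPM, 67% after median ratio rescaling and 55.9% after quantile normalization. Of the calls over all genes it took 92.6%, 84.4% and 44.3%, so after quantile normalization most calls were higher in IMCD. The median log2 difference was 0.936 over all genes tested and 0.558 over genes with 10 TPM in either segment, so a difference near 1 in favour of DTL1 lies close to the middle of the table. Odorant and vomeronasal receptor genes were called higher in DTL1 in 613 of 855 cases (71.7%) and higher in IMCD in 1 case (0.117%).

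Genes with a mean of 10 TPM in both segments were mostly not called, 6011 of 7656. Of the 4406 genes called higher in DTL1 at 10 TPM, 2063 (46.8%) had their highest mean of all 15 groups in DTL1, 935 (21.2%) in GL and 447 (10.1%) in a proximal segment. Of the 926 called higher in IMCD, 498 (53.8%) had their highest mean in IMCD, 78 in OMCD, 69 in ATL and 65 in DTL3.

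**Figure D3:**
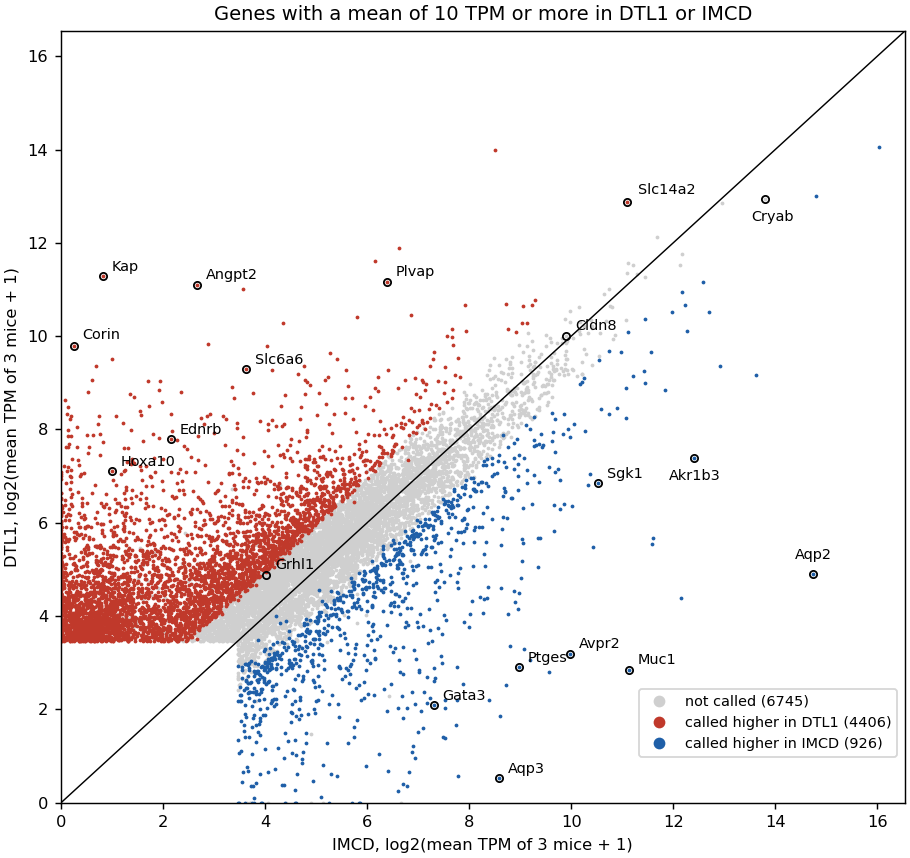
Mean TPM of the 12077 genes with 10 TPM or more in either segment, as log2(TPM + 1), DTL1 on the vertical and IMCD on the horizontal axis, with called genes coloured and the line of equality. Slc14a2, Cryab and Cldn8 lie high on both axes, Corin and Kap along the DTL1 axis, and Aqp2 and Muc1 towards the IMCD axis.

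The 15 largest differences in favour of DTL1 mixed genes that peak in this limb with genes that peak elsewhere. Corin, the protease that activates pro-atrial natriuretic peptide, was at 1127, 895, 1220.2 and 464 TPM in the 4 DTL1 samples and at most at 0.92 TPM in an IMCD sample. Its log2 difference was 9.46 (SE 0.33, adjusted p = 2.17e-26), and no IMCD sample came near the lowest DTL1 sample. Angpt2, a ligand of the endothelial receptor Tie2, followed at 2204 ± 592 TPM in DTL1 and 5.37 ± 4.31 TPM in IMCD, with DTL3 second at 587 TPM. Ifit3b, an interferon-induced gene, stood at 733 ± 59.7 and 1.01 ± 0.740 TPM. Nid2, which encodes the basement membrane protein nidogen 2, stood at 355 ± 71.3 and 0.10 ± 0.0624 TPM. Id1, an inhibitor of basic helix-loop-helix factors, stood at 527 ± 69.4 and 2.27 ± 1.46 TPM. All 5 had their highest mean of the nephron in DTL1, and the mice of the segments did not overlap, as was the case for 55.2% of all genes tested and was required by the rule that chose them. GL was second for Id1 at 231 TPM and for Nid2 at 66.3 TPM. The endothelial sums above were also higher in DTL1 than in IMCD, and their part in the differences was not tested. GL, with a median endothelial sum of 4553 TPM, held Corin at 1.72 TPM.

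Further genes of these 15 were more abundant in other segments. Kap, an androgen-regulated proximal gene, had the largest difference of the 15 at 10.49 (SE 1.02, adjusted p = 8.90e-12), with 798 to 4198 TPM in the DTL1 samples and 75375 ± 10622 TPM in PTS3. Slc27a2, Acsm3, Keg1 and Spink1 also peaked in proximal segments, with DTL1 means of 266 to 447 TPM. Bst1, an ectoenzyme acting on NAD, stood at 396 ± 97 TPM in DTL1 and 864 ± 46.4 TPM in DTL3. Bdh2, a short-chain dehydrogenase, reached 529.7 ± 58.3 TPM in DTL1 and 879 ± 35.2 TPM in DTL2. Fmo2, a flavin monooxygenase, reached 232 ± 83.2 TPM in DTL1 and 236 ± 40.8 TPM in DTL2. The table's ccdc198 was highest in CTAL, at 828 ± 36.1 TPM, and at 430.2 ± 27 TPM in DTL1. The summed proximal markers above were also higher in DTL1 than in IMCD, and their part in the differences of the proximal genes was not tested.

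The 15 largest differences in favour of IMCD were led by Aqp2, at -10.42 (SE 0.52, adjusted p = 6.31e-21). Muc1, a membrane mucin, stood at 2234 ± 304 TPM in IMCD and 6.20 ± 0.887 TPM in DTL1. Rnf183, a membrane ubiquitin ligase, stood at 754 ± 87.5 and 5.92 ± 5.49 TPM, and Sbspon, a secreted matrix protein, at 219 ± 51.9 and 0.477 ± 0.344 TPM. These 3 were highest in IMCD among all groups. Crabp2, a retinoic acid binding protein, was at 51.8 to 142 TPM in the IMCD samples and at 0, 1.10, 0 and 0.31 TPM in the DTL1 samples. Its second group was OMCD at 7.84 TPM. Riiad1 (178 ± 8.62 TPM in IMCD) and Arhgdig (423 ± 130.2 TPM) likewise dropped to 9.52 and 28.3 TPM in OMCD. Tmem158 was also highest in IMCD, at 182 ± 53 TPM. Rasal1, a Ras GTPase activating protein, was highest in DTL3 at 144 ± 34 TPM and stood at 103 ± 27 TPM in IMCD. Spink8 was highest in CNT at 2254 ± 192 TPM and reached 387 ± 333 TPM in IMCD. The rule that chose these genes required mice that do not overlap between DTL1 and IMCD, as for 55.2% of all genes tested.

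Genes were then grouped by function. Each list is described by its calls and its median log2 difference, beside the 0.936 of all genes tested and the 46.8% called higher in DTL1 and 3.73% called higher in IMCD among them. After quantile normalization the median of all genes was 0.02.

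**Figure D4:**
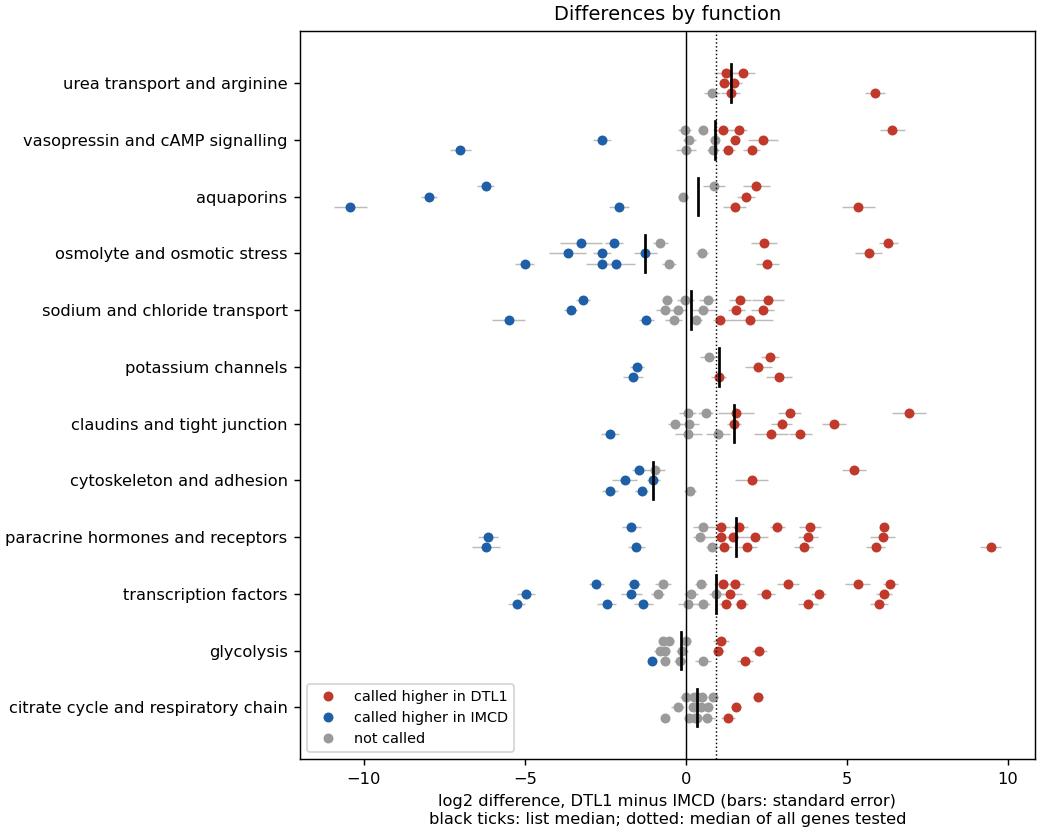
Log2 difference, DTL1 minus IMCD, of each gene of 12 functional lists with its standard error, coloured by call, with black ticks at list medians and a dotted line at the median of all genes tested, 0.936. Osmolyte and cytoskeleton genes lie mostly to the left, towards IMCD, and paracrine and claudin genes mostly to the right, towards DTL1.

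Among genes of urea transport and arginine metabolism, 6 of the 7 tested were called higher in DTL1 and 0 higher in IMCD, with a median of 1.39. After median ratio rescaling 4 were called, and after quantile normalization 2 were, with a median of 0.14. At an unadjusted p under 0.05, 0 of the 7 were lower in DTL1. Asl, argininosuccinate lyase, was at 52 ± 8.89 TPM in DTL1 and 22.3 ± 4.49 TPM in IMCD, and was not called after either rescaling (0.72 in each). Ass1 and Otc had DTL1 means of 7.27 and 1.85 TPM. The difference of Ass1 was 1.26, and its call was lost without DTL1 mouse 5 (0.77, adjusted p = 0.0924), with only the 6 mice in the fit (adjusted p = 0.0898), with a pseudocount of 5 (0.70), after median ratio rescaling (0.86) and after quantile normalization (-0.50). Otc was not called with a pseudocount of 5 or after quantile normalization.

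Vasopressin raises cAMP in the collecting duct, and protein kinase A then acts on water channels and urea transporters. Of 15 genes of this pathway, 7 were called higher in DTL1 and 2 higher in IMCD, with a median of 0.89. After quantile normalization 4 and 2 were called, with a median of 0.04. The receptor Avpr2 was at 631 to 1436 TPM in the IMCD samples, with a median of 1018. It stood at 10.7, 12.4 and 11.2 TPM in the DTL1 pieces of mice 1 and 3 and at 1.93 TPM in that of mouse 5. The log2 difference was -7.01 (SE 0.33, adjusted p = 9.74e-22). The kinase subunit gene Prkar2b was also called higher in IMCD, at 30.9 ± 15.7 TPM there and 3.54 ± 0.892 TPM in DTL1.

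Other genes of the pathway were not called or were called higher in DTL1. Adcy6, an adenylyl cyclase of the collecting duct, stood at 40.1 ± 13.6 TPM in DTL1 and 41.3 ± 8.69 TPM in IMCD and was not called (adjusted p = 0.872). Gnas, encoding the stimulatory G protein subunit, stood at 835 ± 38.5 and 605 ± 194 TPM, and Prkaca, a catalytic subunit, at 40.1 ± 5.20 and 37.9 ± 10.2 TPM. Neither was called. The phosphodiesterase Pde4b, which degrades cAMP, was highest of all groups in DTL1. Its values were 211, 256, 226 and 128 TPM in the 4 DTL1 samples and 0.21 to 2.74 TPM in IMCD, a log2 difference of 6.41 (SE 0.39, adjusted p = 5.58e-18). GL was second for Pde4b at 132 TPM. Pde4d was called in the same direction, at 25.9 ± 8.93 and 5.69 ± 1.66 TPM.

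Of the 10 aquaporins tested, 4 were called higher in IMCD and 4 higher in DTL1, with a median of 0.39, and after quantile normalization 4 and 1 were called, with a median of -0.40. Aqp2, the apical water channel that vasopressin inserts, was at 24306 to 31251 TPM in the IMCD samples, and at 5.19 TPM in mouse 1, 11.7 and 34.5 TPM in mouse 3 and 58.7 TPM in mouse 5 of DTL1. The basolateral channel Aqp3 stood at 384 ± 109.9 TPM in IMCD, below its 5140.1 ± 577 TPM in OMCD, and at 0.443 ± 0.172 TPM in DTL1. Aqp4, the other basolateral channel, stood at 585 ± 41.5 TPM in IMCD and 7.38 ± 2.91 TPM in DTL1. Aqp5 was called at a low level, 4.95 ± 1.44 TPM in IMCD and 0.187 ± 0.169 TPM in DTL1, and was not called with a pseudocount of 5 (-0.86).

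Aqp1, the constitutive water channel of proximal tubules and of long descending limbs, was uneven in DTL1. It was 227 TPM in mouse 1, 14.8 and 18.1 TPM in mouse 3 and 48.6 TPM in mouse 5. DTL3 stood at 11647 ± 467 TPM and DTL2 at 6582 TPM. The difference from IMCD, where Aqp1 was 0.847 ± 1.05 TPM, was 5.35 (SE 0.51, adjusted p = 4.87e-12). In the sample of mouse 1 the long descending limb markers, which include Aqp1, summed to 289 TPM and the proximal markers to 5459 TPM, the highest of the 4 samples in each case, and their part in the Aqp1 level was not tested.

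The promoter of Aqp2 is shown because Aqp2 had the widest difference in favour of IMCD among the named genes and because Gata2 and Gata3, factors that bind GATA letters, differed the same way. The 250 bases before its start, chr15:99578806-99579055 on the plus strand of GRCm38.p6 from RefSeq, are printed with matches to GATA letters on either strand in capitals. The letters searched were AGATAA, with A or T allowed as the first base and A or G as the last.
Aqp2: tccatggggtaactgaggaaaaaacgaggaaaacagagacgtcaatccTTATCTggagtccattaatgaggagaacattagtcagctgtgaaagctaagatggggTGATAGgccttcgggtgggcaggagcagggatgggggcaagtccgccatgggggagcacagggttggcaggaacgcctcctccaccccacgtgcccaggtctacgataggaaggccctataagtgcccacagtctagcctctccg
The matches begin 202 and 145 bases before the start, the first of them on the minus strand. Such letters occur in 26.5% of 32851 promoters of this length, so a match is a description and not a binding site. Of the 5 principal cell marker genes with a promoter in that table, only Aqp2 held a match. Of the 10 aquaporin genes with a promoter there, Aqp2, Aqp7 and Aqp9 did, and Aqp7 was called higher in DTL1 (1.86, but 0.37 and not called after quantile normalization).

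Cells of the inner medulla balance the high salt and urea outside them with organic osmolytes, under the factor Nfat5. Of the 15 osmolyte and osmotic stress genes, 8 were called higher in IMCD and 4 higher in DTL1, with a median of -1.26, on the other side of 0 from the 0.936 of all genes. Under median ratio rescaling 10 were called higher in IMCD, and after quantile normalization 8 were. Akr1b3, the aldose reductase that makes sorbitol, was at 3513 to 8375 TPM with a median of 5489.8 in the IMCD samples. It was at 207, 97.8, 131 and 178 TPM in the DTL1 samples, and the log2 difference was -5.01 (SE 0.29, adjusted p = 5.88e-19). The highest mean of Akr1b3 was in ATL, at 8434 ± 1851 TPM, with IMCD second at 5432 ± 1731 TPM. Sord, which oxidises sorbitol to fructose, went the other way, with 93.2 ± 37.9 TPM in DTL1 and 0.149 ± 0.171 TPM in IMCD. Sord was highest in PTS1, at 1698 ± 82.6 TPM, where the proximal markers are also high.

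Osmolyte transporters were called in both directions. The taurine transporter Slc6a6 was 836 TPM in mouse 1, 466 and 597 TPM in mouse 3 and 518 TPM in mouse 5 of DTL1, against 7.77 to 15.3 TPM in IMCD. Its difference was 5.67 (SE 0.41, adjusted p = 1.01e-15), and DTL1 had the highest mean of all groups, with GL second at 421 TPM. The neutral amino acid transporter Slc38a2 was also higher in DTL1, at 145 ± 43.4 and 26.6 ± 8.32 TPM. The betaine transporter Slc6a12 was higher in IMCD, at 40.1 to 102 TPM in its samples, and was not called with only the 6 mice in the fit (adjusted p = 0.107). In DTL1 it was 23.8, 22.1 and 33.6 TPM in the pieces of mice 1 and 3 and 0.86 TPM in that of mouse 5, so the DTL1 mean of 17.5 ± 14.5 TPM rests on an uneven group. Slc6a12 was highest in DTL3, at 113 ± 32.4 TPM, above its IMCD mean of 67.5 ± 18.3 TPM. The myo-inositol transporter Slc5a3 was higher in IMCD, at 119.8 ± 42.4 and 50.5 ± 30.5 TPM, with overlapping mice. Its call was lost with only the 6 mice in the fit and without the IMCD pieces richest in receptor genes. Slc5a3 was highest in MTAL, at 148 ± 38.9 TPM.

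The heat shock genes Hspa1a, Hspa1b, Hspa4l and Hspb1 and the kinase gene Sgk1 were called higher in IMCD, and Cryab was not called. Hspa1b, an inducible heat shock protein 70 gene, stood at 603 ± 142 TPM in IMCD and 83.5 ± 82.8 TPM in DTL1. Its near-identical copy Hspa1a stood at 145 ± 58.2 and 32.3 ± 16 TPM, and how reads were split between these copies is uncertain. Hspa4l, the osmotic stress protein 94, stood at 111 ± 55.7 and 21.7 ± 9.26 TPM, and the small heat shock protein Hspb1 at 857 ± 189 and 142 ± 41.7 TPM. Sgk1, a kinase induced by salt and corticosteroids, was at 970.5 to 1763 TPM in IMCD and 101 to 143 TPM in DTL1. Hspb1 and Sgk1 were highest of all groups in IMCD. Hspa1b and Hspa4l were highest in ATL, at 967 ± 287 and 119 ± 64.9 TPM, and Hspa1a in DTL3, at 255 ± 292 TPM. The small heat shock protein Cryab was high in both, rank 4 by mean TPM in each, at 7799 ± 1802 TPM in DTL1 and 14296 ± 6032 TPM in IMCD. It was not called, with a difference of -0.79 (SE 0.23, adjusted p = 0.00273), and DTL3 and ATL lay between them. Its difference passed the threshold at -1.28 after median ratio rescaling and at -1.18 without IMCD mouse 1, and was 0.07 after quantile normalization. Nfat5 itself stood at 32.3 ± 3.87 and 23.1 ± 4.86 TPM and was not called.

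The promoter of Slc6a12 is shown because it held, of the 11 genes of this list with a promoter in the table, 1 of 3 matches to the tonicity element that Nfat5 binds, the others being in Pnpla6 and Hspb1. The match, TGGAAAACTCC, begins 75 bases before 1 of the gene's 5 starts and is in capitals. The window is chr6:121342324-121342573 on the plus strand of GRCm38.p6.
Slc6a12: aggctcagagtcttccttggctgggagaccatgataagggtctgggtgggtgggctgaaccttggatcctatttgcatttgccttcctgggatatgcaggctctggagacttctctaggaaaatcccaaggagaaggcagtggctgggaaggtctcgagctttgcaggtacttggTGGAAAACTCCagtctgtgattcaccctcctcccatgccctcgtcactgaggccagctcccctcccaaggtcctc
The element was searched on both strands and occurs in 4.31% of the 32851 promoters.

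Sodium and chloride transport genes were called in both directions, 6 of 18 higher in DTL1 and 4 higher in IMCD, with a median of 0.15. The balance turned with the scaling, to 5 and 6 after median ratio rescaling and to 1 and 5, with a median of -0.40, after quantile normalization. Fxyd2, a regulatory subunit of the sodium pump, was at 6749 to 10254 TPM in IMCD and 479 to 723 TPM in DTL1, a difference of -3.57 (SE 0.20, adjusted p = 1.46e-19). The pump's own subunit gene Atp1b1 stood at 628 ± 123 TPM in DTL1 and 942 ± 115 TPM in IMCD and was not called. Slc12a2, the basolateral sodium potassium chloride cotransporter, was highest of all groups in IMCD, at 127 ± 36.6 TPM, with 12.6 ± 2.85 TPM in DTL1. The epithelial sodium channel was nearly absent from both. Scnn1a stood at 3.51 ± 0.467 TPM in DTL1 and 0.53 ± 0.0687 TPM in IMCD, beside 435 TPM in CCD, and its difference of 1.57 became -0.18 after quantile normalization. Scnn1g, the gamma subunit, was at 0.687 ± 0.597 and 0.358 ± 0.448 TPM. Of the genes called higher in DTL1, Fxyd5 alone had a mean over 10 TPM there, 45.2 ± 6.93 TPM, and it was highest in GL at 308 TPM. Fxyd5 was not called with only the 6 mice in the fit (adjusted p = 0.0687).

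Of the 7 potassium channel genes, 4 were called higher in DTL1 and 2 higher in IMCD, with a median of 1.02, near that of all genes. After quantile normalization 2 and 2 were called, with a median of -0.18. Kcnk1, which encodes the tandem-pore channel TWIK-1, was highest of all groups in DTL1, at 431, 627, 615 and 313 TPM in the 4 samples. The IMCD samples ranged from 50.5 to 85.8 TPM, below every DTL1 sample. The inward rectifier gene Kcnj16 was called higher in IMCD, at 95.3 ± 27.5 TPM against 33.3 ± 11.5 TPM in DTL1. Kcnq1 was also called higher in IMCD, at 20.1 ± 5.79 TPM against 6.14 ± 3.93 TPM.

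Claudins set which solutes pass between epithelial cells. Of 15 tight junction genes, 8 were called higher in DTL1 and 1, Cldn4, higher in IMCD, with a median of 1.49. The share called higher in DTL1 is near the 46.8% of all genes, and after quantile normalization 5 and 2 were called, with a median of 0.47. Cldn8 was the most abundant claudin of the list in both segments, at 1027 ± 286 TPM in DTL1 and 952 ± 242 TPM in IMCD, and was not called (difference 0.11, SE 0.29, adjusted p = 0.745). Cldn7 was also high in both, at 272 ± 24.5 and 349 ± 23.2 TPM. Cldn19, known from the thick ascending limb, was 87.8 TPM in mouse 1, 149 and 203 TPM in mouse 3 and 146 TPM in mouse 5 of DTL1, and at most 0.31 TPM in IMCD. Its usual partner Cldn16 was at 0.130 ± 0.161 TPM in DTL1, beside 570.4 ± 193 TPM in ATL, where Cldn19 was also highest at 913 ± 279.6 TPM. The thick limb marker Umod, which was not on this list, was at 73 to 393 TPM in DTL1, and its part in the Cldn19 level was not tested. Cldn4 stood at 197 ± 21.6 TPM in IMCD and 38 ± 8.21 TPM in DTL1. Cldn2, a cation and water pore, stood at 24.9 ± 5.99 and 0.0378 ± 0.0334 TPM.

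Cytoskeleton and adhesion genes leaned to IMCD, with 5 of 9 called higher there and 2 higher in DTL1, and a median of -1.01. Krt8 stood at 372 ± 43.4 TPM in IMCD and 133 ± 11.8 TPM in DTL1. Its partner keratin Krt18 stood at 787 ± 150.2 and 214 ± 63.8 TPM, and Krt7 at 199 ± 10.2 and 78.5 ± 22.3 TPM. Cdh1, which encodes E-cadherin, stood at 407 ± 206 TPM in IMCD and 69.1 ± 8.72 TPM in DTL1. Cdh6, a cadherin of thin limbs and proximal tubules, had the reverse pattern, at 0.459 ± 0.299 and 49.3 ± 4.81 TPM. Epcam was not called, at 846 ± 81.9 and 929 ± 167 TPM.

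Hormones and receptors that act locally in the medulla were called mostly towards DTL1, 15 of 22 against 4 towards IMCD, with a median of 1.56. After quantile normalization 8 and 4 were called, with a median of 0.10. Corin, described above, led the list, while its substrate gene Nppa was at most at 0.72 TPM in a DTL1 sample. The natriuretic peptide receptor gene Npr2 was 173 TPM in mouse 1, 115 and 145 TPM in mouse 3 and 88 TPM in mouse 5 of DTL1, and 0.01 to 2.88 TPM in IMCD. It was highest of all groups in DTL1, with GL second at 31.6 TPM. Htr4, a serotonin receptor coupled to cAMP, was at 53.3 to 94 TPM in DTL1 and at most 0.14 TPM in IMCD, a difference of 6.15 (SE 0.13, adjusted p = 3.76e-34). The second highest group for Htr4 was GL at 0.40 TPM.

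Ednrb, the endothelin B receptor, was at 266, 270.3, 134 and 196 TPM in the DTL1 samples and at 0.03 to 9.66 TPM in IMCD. Npr1, Nos3 and Ptger4, which stood at 18.5 to 20.3 TPM in DTL1 and under 1 TPM in IMCD on average, were highest in GL, and Ednrb was second highest there at 80.3 TPM. Endothelial cells express Npr1, Nos3 and Ednrb too. The 8 endothelial markers were also called higher in DTL1, and their part in the differences was not tested. Plvap, a protein of fenestrae, stood at 2301 ± 493 TPM in DTL1 and 82.5 ± 67.3 TPM in IMCD.

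Of the 7 prostaglandin genes of the list, 3 were called higher in IMCD, 3 higher in DTL1 and 1, Ptgs2, was not called. Those higher in DTL1 were Ptger4, Ptger3 (4.12 and 0.236 TPM) and Hpgd (1.93 and 0.0267 TPM). The call of Hpgd was lost without DTL1 mouse 3 (0.76), without DTL1 mouse 5 or any IMCD mouse (1.06 to 1.18) and after either rescaling. Ptger3 was not called after quantile normalization (0.42), and Ptgs2 was called without DTL1 mouse 3 (1.15). Ptges, which makes prostaglandin E2, was at 419 to 584 TPM in IMCD, its highest group, and at 1.40 to 9.26 TPM in DTL1. The upstream cyclooxygenase Ptgs1 stood at 157 ± 56.8 TPM in IMCD and 48.6 ± 16.7 TPM in DTL1, and the receptor gene Ptger1 at 336 ± 106 and 3.63 ± 0.647 TPM. The adenosine receptor gene Adora1 was called the same way, at 96.2 ± 8.02 and 31.9 ± 2.52 TPM. Edn1, the endothelin 1 gene, was called higher in DTL1 at low levels, 4.59 ± 2.63 and 0.931 ± 0.237 TPM, and its difference of 1.45 became -0.27 after quantile normalization.

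Of 27 transcription factor genes tested, 13 were called higher in DTL1 and 7 higher in IMCD, with a median of 0.95. The share higher in DTL1 is near the 46.8% of all genes. After quantile normalization the balance turned, with 8 and 10 called and a median of 0.26. Gata3 was at 132 to 182 TPM in the IMCD samples and 2.15 to 5.39 TPM in the DTL1 samples, a difference of -5.25 (SE 0.26, adjusted p = 4.12e-21). Gata2 stood at 67.9 ± 8.33 TPM in IMCD and 11.8 ± 3.44 TPM in DTL1. The epithelial ETS factors Elf5, Elf3 and Ehf stood at 121 ± 29.3, 402 ± 97.3 and 494 ± 104 TPM in IMCD, the highest mean of all groups for each. In DTL1 they stood at 3.35 ± 2.33, 57.4 ± 14.8 and 153 ± 38.6 TPM.

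On the DTL1 side, Hoxa10 was at 167, 168, 166 and 77.1 TPM in the samples and at most at 2.55 TPM in IMCD. The Iroquois genes Irx1, Irx2 and Irx3, which pattern the nephron, stood at 16.9 ± 2.52, 99.5 ± 15.1 and 84.9 ± 16.2 TPM in DTL1 and at 0.336 TPM or less on average in IMCD. Sim2 was at 49.9 ± 16.2 and 0.227 ± 0.0802 TPM. Hnf4a, a proximal factor, was at 15.2 ± 9.98 TPM in DTL1 and 142 ± 15 TPM in PTS2. Some factors of the renal epithelium were at like levels. Pax8 stood at 695 ± 159.6 TPM in DTL1 and 626 ± 151 TPM in IMCD (adjusted p = 0.53). Hoxb7 stood at 164 ± 43.9 and 118 ± 12.6 TPM, a difference of 0.46 (adjusted p = 0.0323), and neither was called.

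Genes of energy metabolism were called in 5 of 14 cases for glycolysis and 3 of 18 for the citrate cycle and respiratory chain, beside 50.5% of all genes. Of the 14 glycolysis genes, 4 were called higher in DTL1 and 1, Ldha, higher in IMCD, with a median of -0.16, below that of all genes. At an unadjusted p under 0.05, 5 were higher in DTL1 and 6 higher in IMCD. Under median ratio rescaling 2 were called higher in DTL1 and 6 higher in IMCD. Ldha, a lactate dehydrogenase subunit gene, stood at 815 ± 59.5 TPM in DTL1 and 1705 ± 296 TPM in IMCD. Its difference of -1.04 lay at the threshold and was -0.99 without DTL1 mouse 3 and -0.92 without IMCD mouse 2. Pfkp, a phosphofructokinase, stood at 73.3 ± 24.9 and 15 ± 6.50 TPM. Of 18 genes of the citrate cycle and respiratory chain, 3 were called higher in DTL1, Idh2, Fh1 and Ppargc1a, and 0 higher in IMCD, with a median of 0.33, below that of all genes on TPM. After quantile normalization it was 0.52, above the 0.02 of all genes. Ppargc1a was not called after median ratio rescaling (0.85) or quantile normalization (0.57). At an unadjusted p under 0.05, 10 of the 18 were higher in DTL1 and 1, Cox5a, was higher in IMCD, at 789 ± 117 TPM against 498 ± 67.1 TPM in DTL1. Atp5b, an ATP synthase subunit gene, stood at 2069 ± 233 TPM in DTL1 and 1702 ± 453 TPM in IMCD, ranks 12 and 14 of the 15 groups. In CTAL it stood at 11209.5 ± 601 TPM.

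Pieces of 1 segment were not uniform for all of these genes. In DTL1, mouse 5 had the lowest Slc14a2, Corin, Umod and Hoxa10, and its Hoxd10 was 9.92 TPM where the other samples had 65 to 70.8 TPM. In IMCD, 3 genes chosen after their values were seen were highest in the second piece of mouse 1. Fxyd4, a sodium pump regulator, was at 9272 TPM there, at 4247 and 5651 TPM in the other pieces of that mouse and at 714 to 2949 TPM in mice 2 and 3. Spink8 was at 1673 TPM in the same piece and 165 to 335 TPM in the other 8. The intercalated cell factor Foxi1 was at 4.30 TPM there and at most at 0.46 TPM in the rest. Slc14a2 was lowest in this piece, at 1279 TPM, and the other pieces of mouse 1 were also low, at 1565 and 1360.1 TPM, beside 1804 to 2816 TPM in mice 2 and 3. Aqp2, by contrast, was at its highest in this piece, 31251 TPM.

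**Figure D5:**
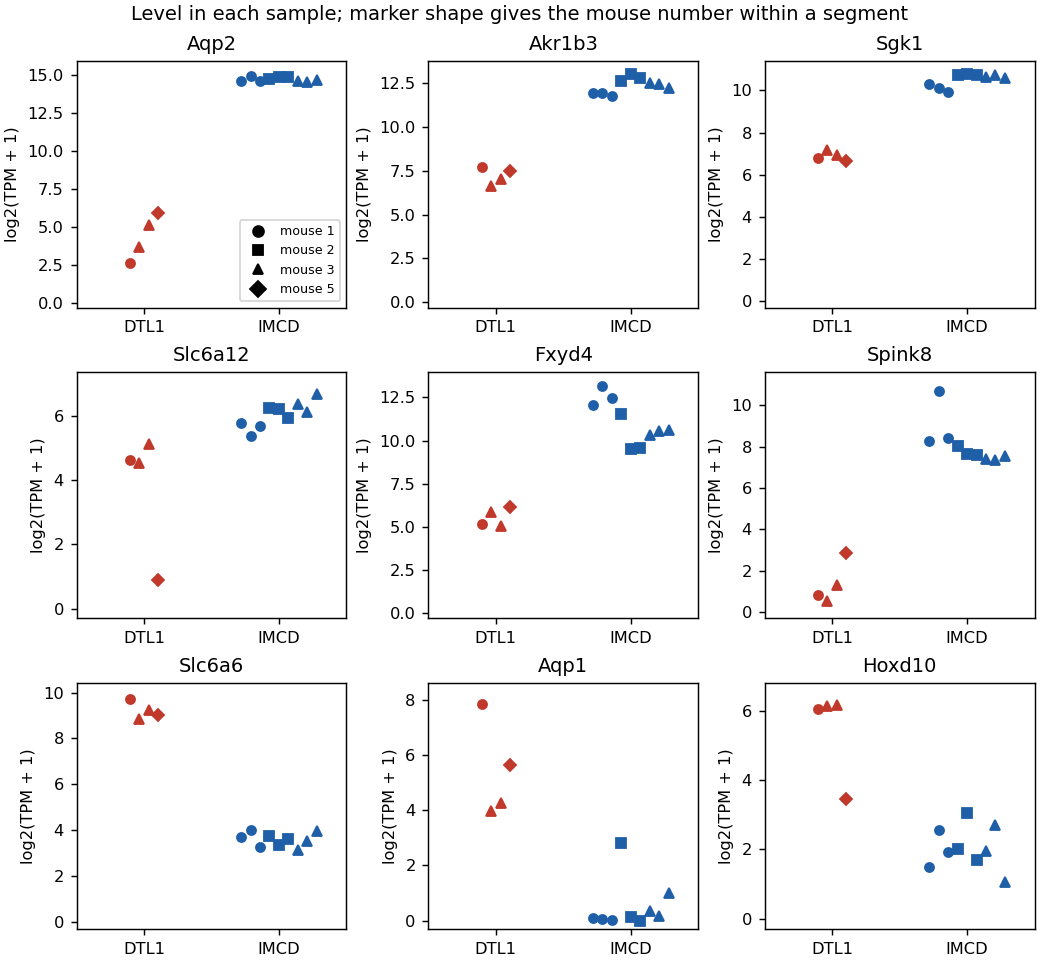
Level of 9 genes in each DTL1 and IMCD sample, as log2(TPM + 1), with marker shape for the mouse number within each segment. Among the DTL1 samples, Slc6a12 and Hoxd10 are lowest in mouse 5, at 0.86 and 9.92 TPM, and Fxyd4 and Spink8 are highest in 1 piece of IMCD mouse 1, at 9272 and 1673 TPM.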

How the data were processed

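TPM per gene were deposited by the authors for 93 samples and 54532 genes. STAR 2.5.4a and RSEM 1.3.0 are named in the submitters' processing notes without a stated role, and the genome build and annotation are not given in the sources used here. Per the labels' protocols, Direct-zol served for RNA extraction, SMARTer V4 for cDNA and Nextera XT for libraries. TPM keep no depth, so no counting interval is given. Sample columns were compared in pairs and 0 held the same values. A PTS2 column whose name matched no title entered the PTS2 group as a further mouse. The 3 single-cell samples were not analysed here.

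Pieces of 1 mouse were averaged as log2(TPM + 1), with a pseudocount of 1, and genes with 1 TPM in at least 3 mice were kept (33793). Limma 3.58.1 in R 4.3.3 was fitted over all 53 mice in 15 groups (lmFit, eBayes with trend), with Benjamini-Hochberg adjustment over all genes tested. A gene was called at an adjusted p under 0.05 and a log2 difference of at least 1. Differences on this scale understate the change of low genes. Genes high in both segments were found from the largest one-sided p of 26 contrasts. The code was tested on simulated data. P-values measure the spread between these mice.

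Named genes were those of the functional and marker lists, the 15 largest differences in each direction among called genes with a mean of 10 TPM in the higher group and no overlap of mice, and up to 10 genes high in both segments. Gm, Rik, mitochondrial, ribosomal and pseudogene names were passed over. Some genes of these lists enter the counts and are not reported here by name. The members and lists were chosen with earlier results of these data known. Biotypes came from GENCODE M21, which held 54495 of the identifiers, and promoters from RefSeq (GRCm38.p6).

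Other settings tried were the pseudocounts 0.1 and 5, a TPM minimum of 5 and none, median ratio rescaling over the 11566 genes above 0 in all mice, quantile normalization, averaging before the log, every sample as independent, only the 6 mice compared, protein-coding genes only, mouse number as a block, leaving out each mouse, and leaving out 3 IMCD pieces with most receptor genes. Python 3.11.15, pandas 2.3.3 and matplotlib 3.10.9 were used.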

Additional observations from a re-analysis of the deposited data

Results flagged for a closer look

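Of 36 sample-level measures, 12 had a sample that stood apart from the rest of its group by Dixon's criterion. Chance meets it in about 1 group in 20 where values are independent and normally distributed. Pieces of 1 mouse are not independent, and the distribution of these sums and counts was not tested, so that rate may not hold here. In DTL1, the first piece of mouse 3 had the highest endothelial sum, 5423 TPM with the next at 3624, the highest leukocyte sum, 767 TPM with the next at 186, and the highest podocyte sum, 63.2 TPM with the next at 27.9. Its Cd74 was 377 TPM where the other DTL1 samples had 16.9 to 17.7 TPM. The other piece of mouse 3 had the lowest urothelial sum, 8.93 TPM with the next at 14.5. Mouse 1 had the highest sum of long descending limb markers, 289 TPM with the next at 71.4. Mouse 5 had the highest sum over odorant and vomeronasal receptor genes, 3624 TPM with the next at 2375.

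In IMCD, the third piece of mouse 2 had the most receptor genes at 1 TPM, 114 with the next at 53, the highest proximal sum, 10 TPM with the next at 3.21, and the highest red cell sum, 1.09 TPM with the next at 0.19. The second piece of mouse 1 had the highest principal cell sum, 42580.4 TPM with the next at 33944, and the highest intercalated cell sum, 15.9 TPM with the next at 2.73. The third piece of mouse 3 had the highest urothelial sum, 5.59 TPM with the next at 2.55. The part of these samples in the gene results was not tested beyond the fits without each mouse and the fit without 3 IMCD pieces, among them the third piece of mouse 2.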

How the results depend on the processing

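Genes called DTL1 against IMCD numbered 17082, and 6345 with a pseudocount of 5, 9152 at a filter of 5 TPM, 7962 after quantile normalization and 8304 among protein-coding genes only (the filter and the biotype leave fewer genes tested). Without each mouse in turn they numbered 16718 to 17137. Genes called with a group mean of 10 TPM or more numbered 5332, with 4032 among protein-coding genes only and 4611 to 5480 under the other alternatives. After rescaling the direction moved: 3474 were higher in DTL1 and 1708 higher in IMCD after median ratio rescaling, and 2893 and 2282 after quantile normalization, against 4406 and 926 on TPM; the cause was not tested. Without each mouse the counts were 5197 to 5475 in all, 4131 to 4566 higher in DTL1 and 816 to 1066 higher in IMCD. Genes high in both DTL1 and IMCD numbered 3, 1 with a pseudocount of 0.1 and 4 with a pseudocount of 5 or among protein-coding genes only. They numbered 6 with every sample as independent, which counts pieces of 1 mouse as replicates, and 1 to 3 without each mouse. Without IMCD mouse 2 and without IMCD mouse 3 only Slc14a2 was left, and this test was not run with only the 6 mice, since it needs the other groups. The mouse number as replicate block gave 16912, 5220 and 2 genes for all calls, those at 10 TPM or more and those high in both; mice of the same number in DTL1 and IMCD had deviations from their group means that correlated at -0.04 and 0.06, so the numbers were not taken as pairs. Among the 135 genes of the text that block ended the DTL1 against IMCD call of Ldha and the call of 4930523C07Rik as high in both (margin 1.08, adjusted p = 0.143). After quantile normalization the differences of Ass1 (-0.50), Scnn1a (-0.18) and Edn1 (-0.27) were reversed, and the cause was not tested. Of 2424 values of these genes under alternatives, 2351 kept their side of the threshold, 41 fell below it, 29 came past it and 3 are the reversals above. A gene not called could change sign and still count among the 2351, as Cryab did after quantile normalization. TPM give no depth, so low levels could not be weighed by reads.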

Other observations

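Some abundant genes outside the functional lists, chosen after their values were seen, are given here from the same limma fit, beside the 3.73% of all genes tested that were called higher in IMCD. Malat1, a nuclear long noncoding RNA, had the highest mean TPM in both segments, 17085 TPM in DTL1 and 67152 TPM in IMCD, a log2 difference of -1.86 (SE 0.25, adjusted p = 3.66e-08). After quantile normalization its difference was -0.29 and was not called (adjusted p = 0.307). Tmsb4x, which encodes the actin-binding peptide thymosin beta 4, stood at 572 TPM in DTL1 and 12531 TPM in IMCD, a difference of -4.46 (SE 0.27, adjusted p = 2.8e-18). Gstm1, a glutathione transferase gene, ranked 6 in both segments, at 7372 and 7907 TPM, and was not called (difference -0.09, SE 0.23).

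Of 6 early response genes, 1 was called higher in DTL1 and 2 higher in IMCD, against 1 and 4 after median ratio rescaling and 0 and 4 after quantile normalization. Atf3, a stress-induced transcription factor, was the former, at 14.2 TPM in DTL1 and 0.626 TPM in IMCD (adjusted p = 0.00138), and was not called after quantile normalization (adjusted p = 0.162). Junb was higher in IMCD, at 58.9 and 293 TPM (adjusted p = 0.0141), and was not called without IMCD mouse 3 (adjusted p = 0.0778). Fos stood at 3.89 and 85.4 TPM and missed the threshold (adjusted p = 0.0501), with -4.53 (adjusted p = 0.0132) without IMCD mouse 1.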
